A study of Mus musculus with 2 samples.

Results

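The genes described here are 10 neuronal genes whose products act at synapses or leave the cell: Arc, Plk2, Nptx1, Nptx2, Nptxr, Vgf, Scg2, Pcsk1, Nrn1 and Inhba. They are 10 of the 55536 annotated genes of a total RNA-seq series on the left cerebral cortex. The animals were male mice of strain B6CASTF1/J, a first-generation cross of C57BL/6J and CAST/EiJ, at 25 days of age, which the labels number as biological replicates 1 and 2 of 1 group, with no treatment named. The genes were chosen by name, and the choice was made with the TPM values and the spread of these same libraries known, so their levels and differences are given as a description without tests. Each library was made from 300 ng of RNA of a whole piece of tissue, in which more cells of a type and more RNA per cell cannot be told apart.

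Neurons that fire strongly switch on a first wave of transcription factor genes and then a second wave of effector genes, whose products change the synapse itself. Arc is transcribed in the first wave although it makes no transcription factor, and its mRNA travels into dendrites. The pentraxins gather glutamate receptors at the cell surface, the granins and their convertase fill and process the contents of dense-core vesicles, and neuritin, activin and the kinase Plk2 act on spines, neurites and synaptic strength. Many of these genes also have a steady level in cortex. No sample here was stimulated or silenced, so regulation by activity could not be examined, only the level in each animal and the difference between them.

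All 10 genes were detected in both libraries, and none stood near the detection limit. Replicate 1 held 30503944 expected counts and replicate 2 held 33263801. Together the 10 genes took 0.295% of the counts in replicate 1 and 0.280% in replicate 2. Neuronal markers summed to 4447.6 TPM in replicate 1 and 4251.3 TPM in replicate 2, with 8 of 8 at 1 TPM or more in both. These markers are general to neurons and no list of cortex genes was used, so the cortical label was not tested. Of 5 genes listed as hippocampal markers 3 reached 1 TPM in both libraries. Ociad2 had 51.95 and 53.34 TPM, Wfs1 50.64 and 49.75 TPM and Prox1 3.31 and 3.14 TPM, while Spink8 and Dsp stayed under 1 TPM. Whether these genes are limited to hippocampus was not examined, so the presence of hippocampal tissue was not tested. TPM, the usual relative measure of transcript abundance, is a count corrected for transcript length and for library size, so it allows levels of different genes to be compared.

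The table of promoter windows, from RefSeq on GRCm38.p6, held 4 of the 10 genes, and those windows are printed because a cAMP response element is the binding site through which the factor CREB links neuronal signalling to many genes of this kind. Each runs from 250 bases before the RefSeq start of the gene to 50 bases after it, 5′ to 3′ on the strand of the gene. That start is not the GENCODE gene start printed later for Scg2, Pcsk1 and Plk2. Capitals mark TGACGTCA, the full element, which reads the same on both strands. The windows are chr1:79439977-79440276 on the minus strand for Scg2, and on the plus strand chr13:75089607-75089906 for Pcsk1, chr13:110394794-110395093 for Plk2 and chr13:16011601-16011900 for Inhba.
Scg2: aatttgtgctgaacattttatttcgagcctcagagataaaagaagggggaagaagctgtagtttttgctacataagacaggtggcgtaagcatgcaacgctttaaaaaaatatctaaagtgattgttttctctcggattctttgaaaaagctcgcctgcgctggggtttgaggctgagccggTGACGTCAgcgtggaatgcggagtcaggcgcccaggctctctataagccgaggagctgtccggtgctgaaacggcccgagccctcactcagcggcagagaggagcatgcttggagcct
Pcsk1: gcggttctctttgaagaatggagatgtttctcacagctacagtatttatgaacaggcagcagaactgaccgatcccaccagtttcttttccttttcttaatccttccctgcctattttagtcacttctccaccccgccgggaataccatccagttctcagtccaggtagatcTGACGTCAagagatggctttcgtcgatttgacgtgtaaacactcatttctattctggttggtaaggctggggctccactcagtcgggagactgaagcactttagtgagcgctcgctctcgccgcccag
Plk2: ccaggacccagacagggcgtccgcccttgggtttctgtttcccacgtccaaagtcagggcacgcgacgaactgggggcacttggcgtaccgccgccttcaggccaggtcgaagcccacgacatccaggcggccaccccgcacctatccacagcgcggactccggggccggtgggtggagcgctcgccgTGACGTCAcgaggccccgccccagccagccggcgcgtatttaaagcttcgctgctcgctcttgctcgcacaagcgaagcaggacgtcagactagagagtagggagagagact
Inhba: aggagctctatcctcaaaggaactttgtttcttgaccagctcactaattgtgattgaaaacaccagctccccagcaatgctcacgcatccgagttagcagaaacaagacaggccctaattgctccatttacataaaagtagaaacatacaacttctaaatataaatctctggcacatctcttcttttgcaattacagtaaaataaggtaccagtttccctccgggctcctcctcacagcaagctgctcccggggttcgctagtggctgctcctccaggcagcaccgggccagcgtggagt

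The full element was found in 3 of the 4 windows, against 1.79% of the 32851 windows of the same length in the table. It lay 68 to 61 bases before the RefSeq start in Scg2, 78 to 71 bases before it in Pcsk1 and 62 to 55 bases before it in Plk2. The near match in distance holds for the RefSeq starts only. The GENCODE start of Scg2, at 79440120, lies upstream of the element, so by that start the element falls inside the gene. The shorter core TGACG, searched on both strands and contained in the full element, was in the same 3 windows and in 20.8% of all windows. Outside the full element it occurred once more in Pcsk1, 50 to 46 bases before the start, and once in Plk2, 21 to 25 bases after it. The AP-1 site TGANTCA was in 0 of the 4 windows and in 7.81% of all. The exact run TATAAA, searched for as the TATA box, was in the Inhba window alone of the 4, 91 to 86 bases before the start. It was in 13.6% of all windows. Whether the Inhba match acts as a TATA box was not tested. Similar runs, such as tataag in the Scg2 window and tatttaaa in the Plk2 window, were not searched for. The windows without TATAAA are thus not shown to lack a TATA box. A match is a run of letters and not a measured binding site, and no match says only that these letters are not in this window. The windows, like the Scg2 segment printed below, are of the reference assembly, and the CAST/EiJ alleles of these animals were not examined.

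The levels of the 10 genes differed widely. Nptxr was the highest, at 411.4 ± 13.0 TPM (SD, n = 2), and Inhba the lowest, at 8.25 ± 0.955 TPM. Among the 21951 protein-coding genes Nptxr ranked 93, Vgf 403, Nrn1 426, Arc 662 and Plk2 671 by mean TPM. Nptx1 ranked 955, Scg2 1011, Nptx2 2010, Pcsk1 5039 and Inhba 8809. Neighbours in this order were closer than the larger of their SDs for Vgf and Nrn1, Arc and Plk2, and Nptx1 and Scg2. The order within these pairs is not settled. Nrn1 and Arc were also closer than the SD of Arc. Nrn1 was still the higher in each library, narrowly in replicate 1, at 168.3 against 166.9 TPM, and at 172.2 against 82.2 TPM in replicate 2. The gene sums of the second transcript file put Nrn1 above Vgf, Plk2 above Arc and Scg2 above Nptx1. The remaining steps, from Nptxr to Vgf, from Plk2 to Nptx1, and from Scg2 down through Nptx2 and Pcsk1 to Inhba, were wider than either SD. These SDs do not cover the choice of file. In the second transcript file all 10 mean levels were higher, with Nptxr at 624.1 TPM and Inhba at 12.4 TPM.

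**Figure D1:**
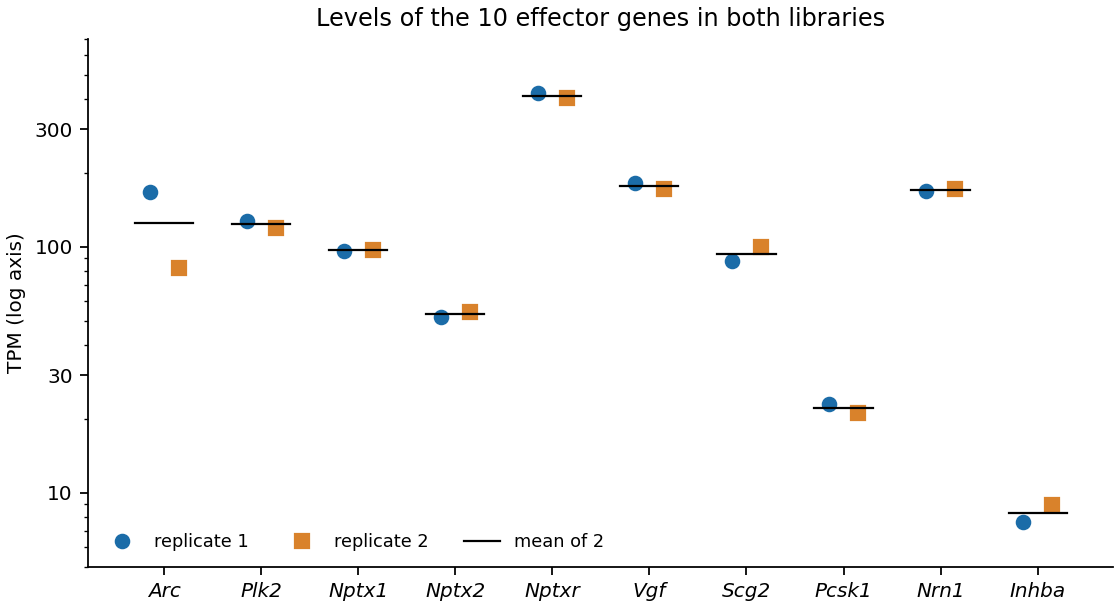
TPM of the 10 effector genes (log axis) in replicate 1 (blue circles, left) and replicate 2 (orange squares, right), with a bar at the mean of 2. Arc stood at 166.9 and 82.2 TPM, while for the other 9 genes both points lie close together.

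Arc was the one gene of the 10 whose libraries stood apart. Arc (ENSMUSG00000022602.14, mm10 chromosome 15, 74669083 to 74672570, minus strand) encodes a capsid-like protein that removes AMPA receptors from synapses. It had 166.9 TPM in replicate 1, from 9929 counts, and 82.2 TPM in replicate 2, from 5467. Replicate 1 was thus 2.03-fold higher, a log2 difference of 1.02, where log2 differences are replicate 1 over replicate 2 on TPM + 0.5. By counts scaled with TMM, a library size correction that assumes most genes are alike, the log2 difference was 0.98, and its exact binomial 95% interval ran from 0.94 to 1.03. That interval covers counting error only and not the spread between animals. Across 8 ways of scaling or estimating, Arc was higher in replicate 1 in 8, by log2 differences of 0.83 to 1.02.

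Few other genes of comparable depth differed as much. Over 1.5-fold apart were 401 of 18136 genes whose mean count reached 10 in the direction of replicate 1 (2.21%) and 280 in the other direction (1.54%). All 10 effector genes had mean counts above 500, where 22 of 8054 genes were over 1.5-fold higher in replicate 1 (0.273%) and 10 were lower (0.124%). Of the 10, 1 was over 1.5-fold higher in replicate 1 and 0 were over 1.5-fold lower, and their median log2 difference was 0.03, as over all genes. Among the 8054 genes 3 differed more than Arc in either direction, named here after their values were seen. Npas4, an activity-induced transcription factor gene, had 12.33 TPM in replicate 1 and 5.4 TPM in replicate 2. The choroid plexus gene Ttr had 19.47 and 191.9 TPM. Sap18 had 8.59 and 19.95 TPM, but 765.4 and 874.7 counts, so its difference lies mostly in the transcript length used for TPM.

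**Figure D2:**
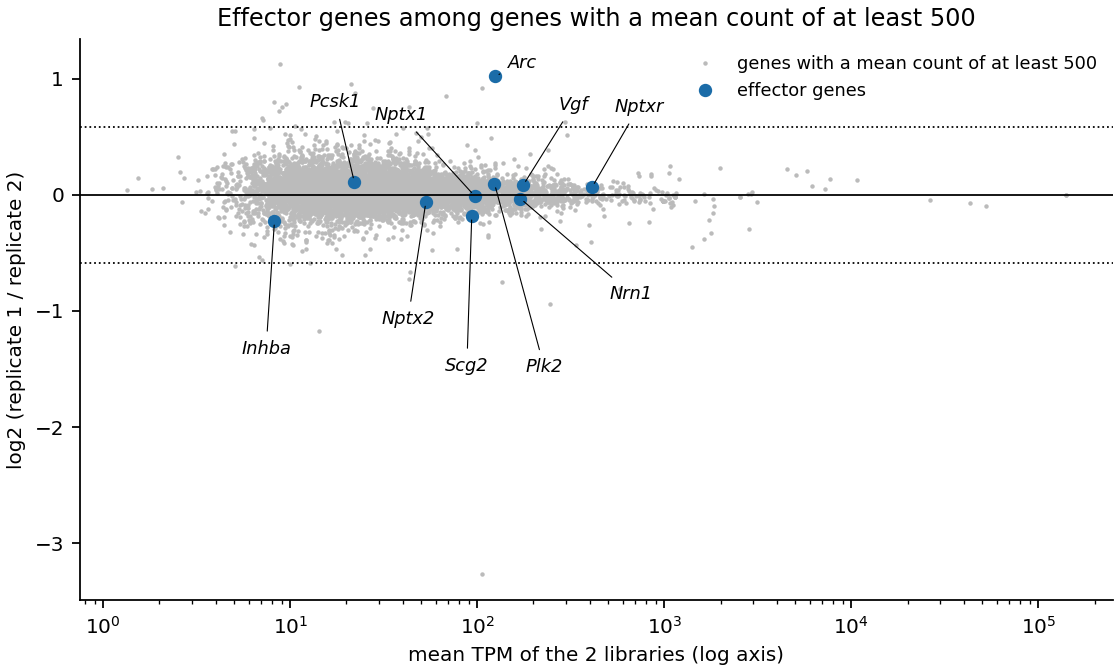
Log2 difference of replicate 1 over replicate 2 against mean TPM (log axis) for the genes whose mean count reached 500 (grey) and the 10 effector genes (blue), with dotted lines at 1.5-fold. Arc lies among the few genes above the upper line at 1.02, and the other 9 lie inside the cloud between -0.22 and 0.11.

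Arc exceeded its partners in this difference. The 7 listed partners, which bind the protein, carry it into endocytosis or mark it for degradation, had log2 differences from -0.09 to 0.06 and a median of 0.01. Over 1.5-fold apart were 0 of 7. Of all 18136 genes 2.21% were over 1.5-fold higher in replicate 1 and 1.54% lower, so 0 is the usual outcome for a short list. Ap2m1, a subunit of the endocytic adaptor that Arc binds, had 395.0 TPM in replicate 1 and 393.1 TPM in replicate 2. Camk2b, the kinase that holds Arc at inactive synapses, had 274.1 and 282.0 TPM. Dnm2, which pinches off vesicles, had 25.38 and 24.26 TPM, and the ubiquitin ligase gene Ube3a had 57.68 and 61.28 TPM. The ligase gene Rnf216 had 19.23 and 18.59 TPM. By TPM each of these partners lay close in the libraries.

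The immediate early transcription factor genes differed in the same direction as Arc. Of 15 listed, 14 were higher in replicate 1, where 57.8% of all 18136 genes were. Over 1.5-fold higher were 6 of 15, against 2.21% of all 18136 genes. The median of the 15 was 0.43 on the log2 scale, against 0.03 over all genes. The median was 0.39 by TMM-scaled counts and 0.24 after scaling to the spike-in total, where that of all genes was -0.14. Nr4a1, an orphan nuclear receptor gene, had 87.81 TPM in replicate 1 and 48.37 TPM in replicate 2. Junb, an AP-1 subunit gene, had 54.26 and 32.03 TPM, and the zinc finger gene Egr1 had 139.3 and 99.07 TPM. Ier2 had 8.10 and 4.59 TPM. Egr3 was closer, at 88.74 and 81.38 TPM, and Nr4a2, named as the 1 exception, had 19.48 and 22.09 TPM. The ratio of Arc to Npas4 was 13.5 in replicate 1 and 15.2 in replicate 2, and that of Arc to Egr1 was 1.20 and 0.829.

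The count of 6 over 1.5-fold fell to 2 of 15 after spike-in scaling, where 13 of 15 were higher in replicate 1. It was 5 in the second transcript file and also by TMM-scaled counts. Of 18136 genes, 401 were over 1.5-fold higher by TPM and 212 after spike-in scaling. The second transcript file had 572 such genes and TMM-scaled counts had 286. Npas4 at its lowest was 0.95 and Nr4a1 0.66 over 8 settings, both past 1.5-fold in each. The list was drawn up with earlier results of these libraries known, so its direction is not independent of the choice.

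Other effector genes of the same kind were mixed. Of 14 listed, 10 were higher in replicate 1, where 57.8% of all genes were. Their median was 0.27 on the log2 scale, or 0.22 by TMM-scaled counts. After spike-in scaling it was 0.09, against -0.14 over all genes, and 7 of 14 were higher. Dusp1, a phosphatase gene that ends MAP kinase signalling, was over 1.5-fold higher, with 28.14 TPM in replicate 1 against 14.27 TPM in replicate 2, and so was Gadd45g, at 8.81 and 5.07 TPM. The kinase gene Sik1 had 13.69 and 9.11 TPM. Dusp6, another phosphatase gene, named here after its values were seen, had 63.0 and 47.48 TPM. The 4 most abundant members were closer. Homer1, a scaffold of glutamate receptors, had 202.1 and 200.96 TPM, and Rasgrp1 had 139.1 and 142.5 TPM. Syt4, of the synaptotagmin family, had 77.73 and 75.56 TPM, and Rheb, the activator of mTOR, had 55.62 and 57.40 TPM.

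**Figure D3:**
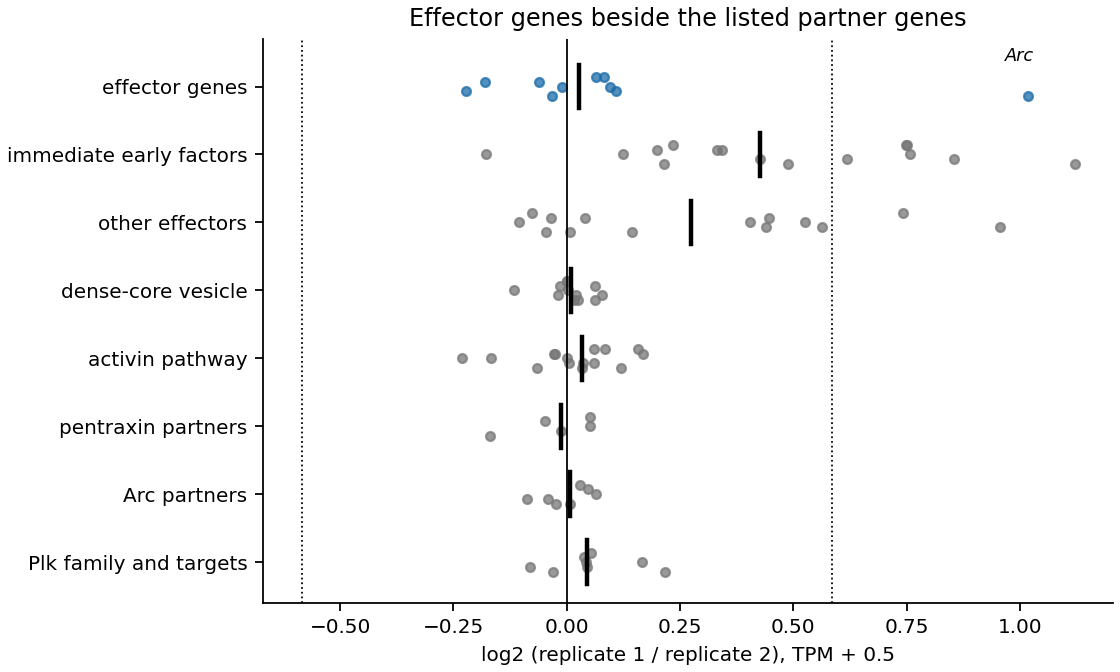
Log2 difference of replicate 1 over replicate 2 for each gene of the 10 effector genes (blue) and of 7 lists of related genes (grey), with a bar at each median and dotted lines at 1.5-fold. The immediate early factors have a median of 0.43 and the other effectors one of 0.27, while the vesicle, activin, pentraxin, Arc partner and Plk lists centre near 0.

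Several marker lists also differed between the libraries, in both directions, and their part in the differences above was not tested. By TPM 57.8% of all 18136 genes were higher in replicate 1. Red blood cell genes summed to 1030.3 TPM in replicate 1 and 727.2 TPM in replicate 2, with 5 of 5 higher in replicate 1. Choroid plexus genes summed to 24.04 and 201.4 TPM with 6 of 6 lower in replicate 1; without Ttr the other 5 summed to 4.57 and 9.45 TPM, and the list's median log2 difference was -1.07. Oligodendrocyte genes summed to 867.2 and 1159.7 TPM, with 6 of 6 lower. Neuronal markers were closer, with a median log2 difference of 0.04. Vascular and meningeal genes summed to 116.3 and 117.1 TPM, and microglial genes to 123.4 and 122.2 TPM. Astrocyte genes had a median of 0.16, which turned to -0.03 after spike-in scaling.

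The other 9 genes differed less between the animals. Their coefficients of variation over 2 libraries ran from 0.475% for Nptx1 to 11.6% for Inhba, against 48.1% for Arc. By TPM 4 were higher in replicate 1 and 5 lower, where 57.8% of all genes were higher. Their median log2 difference was -0.01, close to the 0.03 over all genes. Nptx1, Nptx2, Scg2, Nrn1 and Inhba were lower in replicate 1 in 8 of 8 settings. Nptxr, Vgf, Pcsk1 and Plk2 were higher in 7 and turned to lower when TPM was scaled to the spike-in total, a scaling that moves the median of all genes to -0.14, against 0.03. In sum the 9 genes had 1164.8 TPM in replicate 1 and 1146.1 TPM in replicate 2.

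**Figure D4:**
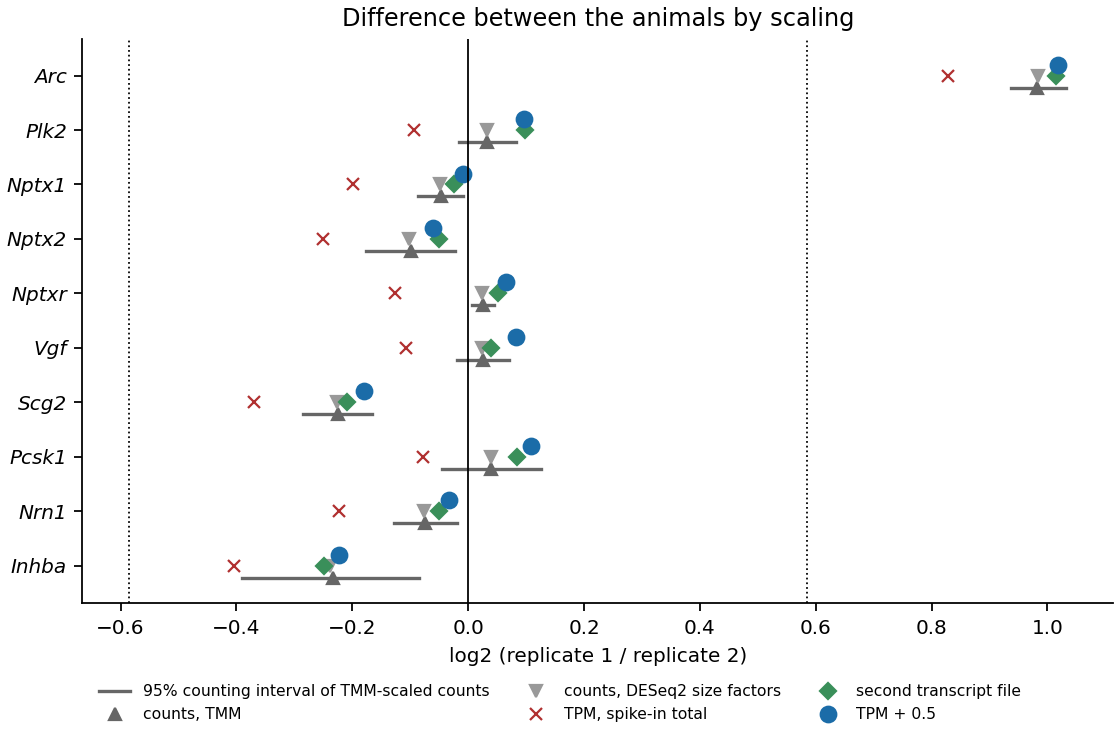
Log2 difference of replicate 1 over replicate 2 for each effector gene by TPM + 0.5 (blue), the second transcript file (green), counts scaled by TMM or by DESeq2 size factors (grey) and TPM scaled to the spike-in total (red crosses). Bars are 95% counting intervals of the TMM-scaled counts, and dotted lines mark 1.5-fold, which Arc passes in every scaling shown and no other gene reaches.

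Plk2, a polo-like kinase that activity induces and that triggers the loss of spine proteins, was close in the animals. Plk2 (ENSMUSG00000021701.8, mm10 chromosome 13, 110395046 to 110400844, plus strand) had 127.9 TPM in replicate 1, from 6395 counts, and 119.6 TPM in replicate 2, from 6811. It differed by a log2 of 0.10 by TPM and 0.03 by TMM-scaled counts, with a counting interval from -0.02 to 0.08. Of the 8054 genes of similar depth 39.8% differed more. The ratio of Arc to Plk2 was 1.31 in replicate 1 and 0.687 in replicate 2, so the order of these genes was opposite in the animals.

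Plk2 was the leading member of its kinase family in this tissue. It was 19.1 times as abundant as Plk3 in replicate 1 and 16.8 times in replicate 2, and 12.6 and 12.1 times as abundant as Plk5, by TPM. The cell division kinase gene Plk1 had 33 and 29 counts, or 0.79 and 0.61 TPM. Among the substrates of Plk2, Sipa1l1, the spine regulator SPAR, had 116.3 TPM in replicate 1 and 112.7 TPM in replicate 2. Rasgrf1 had 95.49 and 97.51 TPM and Rapgef2 57.16 and 55.07 TPM. Over the 8 genes of this list the median log2 difference was 0.04, or -0.02 by TMM-scaled counts. Over 1.5-fold apart were 0, beside 2.21% of all genes higher and 1.54% lower.

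The pentraxins kept a fixed order, with the receptor far above both ligands. Nptxr, a membrane-anchored pentraxin that assembles with the secreted ones (ENSMUSG00000022421.19, mm10 chromosome 15, 79786351 to 79804766, minus strand), had 420.7 TPM in replicate 1, from 40972 counts, and 402.2 TPM in replicate 2, from 43856. Nptx1 (ENSMUSG00000025582.4, chromosome 11, 119538719 to 119547753, minus strand), a secreted pentraxin that recruits AMPA receptors, had 96.48 and 97.13 TPM on 9938 and 11193 counts. Nptx2 (ENSMUSG00000059991.7, chromosome 5, 144545902 to 144557478, plus strand), also called Narp, the activity-induced pentraxin that gathers AMPA receptors on interneurons, had 52.03 and 54.32 TPM on 2552 and 2981 counts. None of the 3 differed by more than 0.07 on the log2 scale by TPM.

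Nptx1 had the smallest difference of the 10 by TPM but not by TMM-scaled counts, where Nptxr, Vgf, Plk2 and Pcsk1 were nearer 0. Its log2 difference was -0.01 by TPM and -0.05 by TMM-scaled counts, and 92.5% of the 8054 genes differed more by TPM. The counting intervals of TMM-scaled counts ran from -0.09 to -0.01 for Nptx1, from -0.18 to -0.02 for Nptx2 and from 0.01 to 0.05 for Nptxr. By TPM, Nptx1 stood at 1.85 times Nptx2 in replicate 1 and 1.79 times in replicate 2. Nptxr stood at 4.36 and 4.14 times Nptx1, and at 8.08 and 7.40 times Nptx2. These ratios use no library scaling.

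The receptor subunits that pentraxins gather were also even. Gria2, the subunit that keeps AMPA receptors closed to calcium, had 230.0 TPM in replicate 1 and 222.0 TPM in replicate 2. Gria1 had 93.98 and 94.87 TPM, Gria3 94.32 and 97.47 TPM, and Gria4, abundant in fast-spiking interneurons, 45.95 and 44.34 TPM. Adam17, the protease that releases Nptxr from the membrane, had 6.93 and 7.86 TPM. The blood pentraxins Crp and Apcs had 0 counts in both libraries, where 0 allows up to 3 counts each. Of the 5 partners with enough counts 2 were higher in replicate 1 and 3 lower, where 57.8% of all genes were higher. Their median log2 difference was -0.01.

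One reservation applies to Nptxr. Npcd is annotated on the same strand over part of the same locus, at 234.7 counts in replicate 1 and 235.2 counts in replicate 2, and Nptxr was the 1 gene of the 10 whose deposited posterior SD of the gene count was above 0, at 45 and 55.96 counts. For the other 9 that SD was 0 in both libraries.

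Vgf and Scg2, both granins, and Pcsk1, which cuts such precursors into peptides, belong to the dense-core vesicle pathway. Vgf (ENSMUSG00000037428.14, mm10 chromosome 5, 137026392 to 137033351, plus strand), a precursor of secreted neuropeptides, had 181.3 TPM in replicate 1, from 7687 counts, and 171.2 TPM in replicate 2, from 8228. Scg2 (ENSMUSG00000050711.7, chromosome 1, 79434669 to 79440120, minus strand), the precursor of secretoneurin, had 87.72 and 99.39 TPM on 4087 and 5206 counts. Pcsk1 (ENSMUSG00000021587.5, chromosome 13, 75089826 to 75134861, plus strand), the prohormone convertase PC1/3, had 22.88 and 21.18 TPM on 2182 and 2313 counts.

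Scg2 was lower in replicate 1 beyond counting error. Its log2 difference was -0.18 by TPM and -0.22 by TMM-scaled counts, with a counting interval from -0.28 to -0.17, and 1208 of the 8054 genes differed more. Vgf was at 0.08 by TPM, and its interval from TMM-scaled counts ran from -0.02 to 0.07. Pcsk1 was at 0.11, with an interval from -0.05 to 0.12. The ratio of Vgf to Scg2 was 2.07 in replicate 1 and 1.72 in replicate 2. Scg2, Pcsk1 and Plk2, the 3 genes with the full element in the windows printed above, thus had log2 differences of -0.18, 0.11 and 0.10 by TPM.

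The machinery of dense-core vesicles was even. Cpe, the carboxypeptidase that trims peptides after the convertases and the most abundant of the list, had 1110.7 TPM in replicate 1 and 1109.7 TPM in replicate 2. Scg5, a chaperone of the convertase Pcsk2, had 241.4 and 228.6 TPM, and Ptprn, a vesicle membrane protein gene, 225.4 and 216.0 TPM. Chga, the granin chromogranin A, had 71.16 and 77.14 TPM and, at -0.12 on the log2 scale, the largest difference of the list. Of the 12 genes 9 were higher in replicate 1 by TPM, where 57.8% of all genes were, but 2 by TMM-scaled counts. The medians were 0.01 and -0.04, against 0.03 and -0.01 over all genes. Over 1.5-fold apart were 0, beside 2.21% of all genes higher and 1.54% lower.

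Pcsk1 was the lesser convertase. Pcsk2 stood at 5.27 times Pcsk1 in replicate 1 and 5.68 times in replicate 2 by TPM. Pcsk1n, which encodes the inhibitor proSAAS, stood at 7.48 and 8.18 times Pcsk1, with 171.1 and 173.3 TPM.

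Nrn1, which encodes neuritin, a lipid-anchored protein that promotes neurite growth and synapse maturation, was slightly lower in replicate 1. Nrn1 (ENSMUSG00000039114.16, mm10 chromosome 13, 36725361 to 36735131, minus strand) had 168.3 TPM in replicate 1, from 5114 counts, and 172.2 TPM in replicate 2, from 5867. It differed by a log2 of -0.03 by TPM, with a counting interval from -0.13 to -0.02 around -0.07 for TMM-scaled counts, and -0.22 after spike-in scaling. Arc and Nrn1 had nearly the same TPM in replicate 1, at a ratio of 0.992, but a ratio of 0.477 in replicate 2. Its relative Nrn1l had 17 and 15.57 counts, and Nrn1 stood at 100.2 and 127.6 times Nrn1l by TPM. Fars2 overlaps Nrn1 on the opposite strand at 370 and 429 counts; whether counting used strand is not given in the sources used here.

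Inhba, which encodes the activin beta A subunit, was the lowest of the 10 and lower in replicate 1. Inhba (ENSMUSG00000041324.14, mm10 chromosome 13, 16011851 to 16031621, plus strand) had 7.57 TPM in replicate 1, from 628 counts, and 8.92 TPM in replicate 2, from 807. It differed by a log2 of -0.22 by TPM and -0.23 by TMM-scaled counts, with a counting interval from -0.39 to -0.09. Of the 8054 genes 8.74% differed more. A transcribed pseudogene, B230303A05Rik, overlaps it on the opposite strand at 79 and 64 counts, and was not higher in replicate 2.

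Inhba was the more abundant of the listed activin beta subunits. It stood at 2.62 times Inhbb in replicate 1 and 3.51 times in replicate 2 by TPM. The inhibin alpha subunit gene Inha, whose product turns a beta subunit into inhibin, had 11.45 and 10.13 TPM, so Inhba stood at 0.661 and 0.881 times Inha. Fst, which encodes the activin-binding antagonist follistatin, had 5.04 and 5.02 TPM, and Inhba stood at 1.502 and 1.777 times Fst.

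Most receptor and Smad genes of the pathway stood above the ligand. Acvr1b, the main type I activin receptor gene, had 49.72 TPM in replicate 1 and 47.65 TPM in replicate 2, which was 6.57 and 5.34 times Inhba. The type II receptor gene Acvr2a had 22.52 and 22.94 TPM. Acvr1c, another type I receptor gene, had 6.74 and 8.00 TPM. By TPM its log2 difference of -0.23 was the largest of the list and of the same size as that of Inhba. In the second transcript file it was -0.10, against -0.25 for Inhba. The signal transducer genes Smad3 and Smad4 had 30.25 and 29.50 TPM, and 22.85 and 25.73 TPM. Of the 15 genes of the list 9 were higher in replicate 1 and 5 lower by TPM, where 57.8% of all genes were higher. The median was 0.03, as over all genes, or -0.02 by TMM-scaled counts. Over 1.5-fold apart were 0, beside 2.21% of all genes higher and 1.54% lower.

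The 10 genes have 28 annotated transcripts, and 8 of the genes have more than 1. By mean share of gene TPM, the leading transcript was the same in both transcript files for 8 of 10 genes. These include the 2 genes with 1 transcript, where no other outcome was possible. They also include Scg2, although Scg2-202 held 51.1% in replicate 1 in the first file. Shares are of the TPM of the gene, in the first transcript file unless the second is named. For Arc, Arc-201 held 72.1% in replicate 1 and 62.3% in replicate 2, and the second file gave 72.8% and 62.7%. Arc-201 alone had 120.4 and 51.17 TPM, a log2 difference of 1.23, while Arc-202 had 46.56 and 30.98 TPM, a difference of 0.58. The pair shares all of its 1188-base coding sequence and 3052 exonic bases, with 3 bases found in Arc-201 alone and 2 in Arc-202 alone, so few reads can separate them. The deposited posterior SDs of each transcript's count were 263.8 and 196.9, on 7160 and 3406 counts of Arc-201.

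Both leading transcripts of Scg2 hold a large share and differ in annotated coding sequence. Scg2-201 held 48.9% in replicate 1 and 54.7% in replicate 2, and 58.8% and 57.7% in the second file. It carries 1851 coding bases against 1731 for Scg2-202, and the 120 bases between them, 40 codons in frame, are printed here because they separate the annotated proteins. They lie inside the coding sequence at chr1:79435932-79436051 on mm10, minus strand, begin with GT and end with AG, the letters found at the ends of most introns, in capitals.
Scg2-201 segment: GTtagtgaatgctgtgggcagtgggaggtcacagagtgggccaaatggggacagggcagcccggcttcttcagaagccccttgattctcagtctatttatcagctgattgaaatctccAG

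Nearly the whole difference of Scg2 between the animals lay in Scg2-201 in the first file, at 42.93 and 54.36 TPM, while Scg2-202 had 44.79 and 45.03 TPM. The second file shared it over both, with log2 differences of -0.18 for Scg2-201 and -0.25 for Scg2-202. The transcript that carries the difference is thus not settled by these files.

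Vgf and Nptxr had no settled leading transcript. For Vgf the first file gave Vgf-201 77.1% in replicate 1 and 77.6% in replicate 2, and the second file gave it 1.83% and 4.03%, with Vgf-204 at 78.8% and 76.3% there. All of Vgf-201 lies within Vgf-204, which has 281 more bases, and both carry the same 1851-base coding sequence. Vgf-203, a shorter transcript with 422 annotated coding bases, held 18.3% and 17.0%, and 19.3% and 19.7% in the second file. For Nptxr the first file gave Nptxr-203 78.6% and 80.4%, and the second gave 48.3% and 48.2%, with Nptxr-201 at 50.9% and 50.7%. Nptxr-201 has 58 more bases than Nptxr-203 and the same coding sequence. The choice of file moved the shares of Vgf-201, Vgf-204, Nptxr-201 and Nptxr-203 far more than the choice of animal, but not that of Vgf-203.

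**Figure D5:**
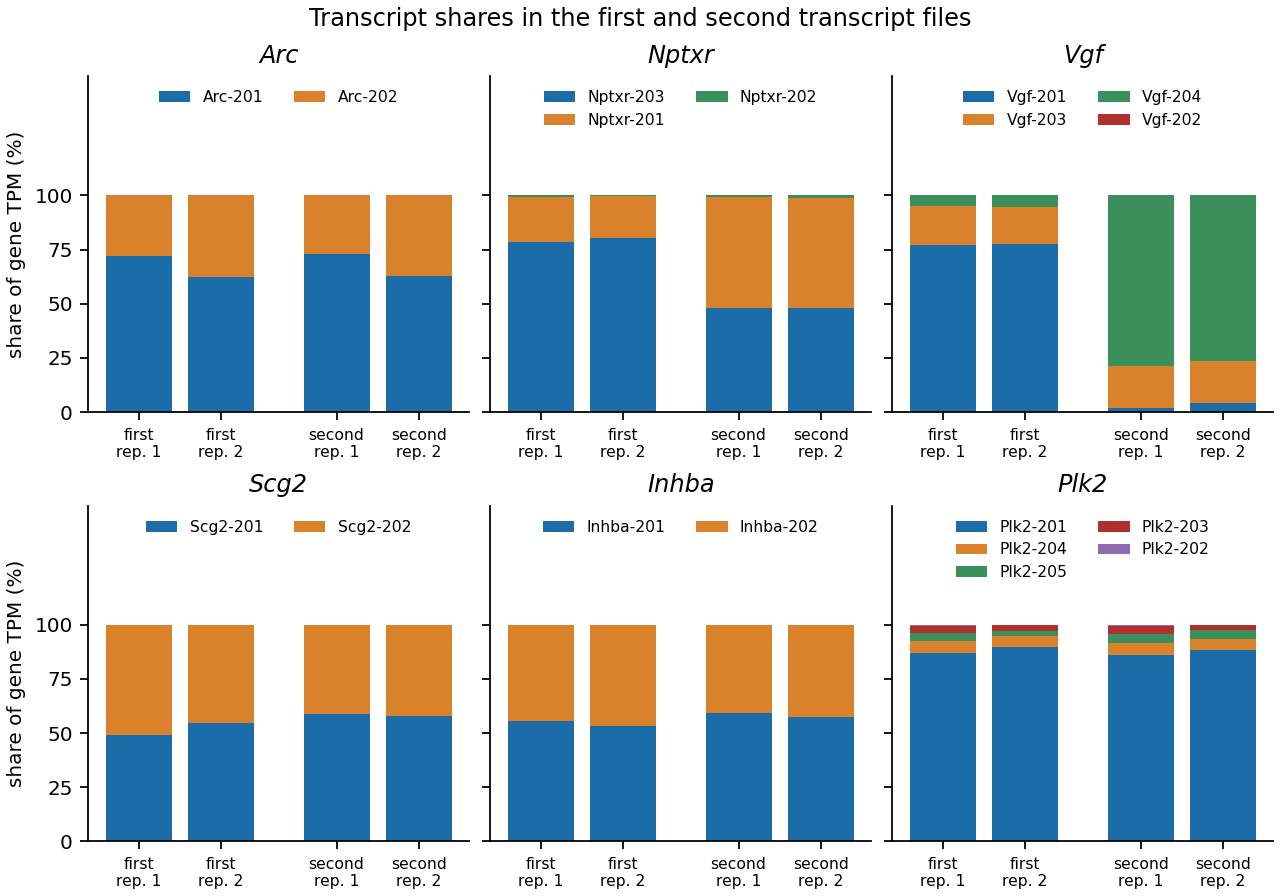
Share of the gene's TPM (%) held by each annotated transcript of Arc, Nptxr, Vgf, Scg2, Inhba and Plk2, in replicates 1 and 2 by the first and the second transcript file. The files give Vgf-201 about 77% and about 2% to 4%, and Nptxr-203 about 79% and 48%, while for Arc, Inhba and Plk2 they differ by under 5 percentage points.

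The remaining genes had a steady leading transcript. Inhba-201 held 55.4% in replicate 1 and 53.3% in replicate 2, though it is 6390 bases long against 1529 for Inhba-202 and took 84.5% and 83.4% of the counts. Nrn1-201 held 98.1% and 96.5%, and Nptx1 and Nptx2 have 1 transcript each. Plk2-201 held 87.1% and 89.8%, Plk2-204 held 5.28% and 4.96%, and the retained-intron transcripts of Plk2, Plk2-204 among them, together held 12.9% and 10.2%, or 13.9% and 11.8% in the second file. Pcsk1-201 held 94.4% and 97.5%. The retained-intron transcript Pcsk1-202 held 5.64% and 2.50% on 34.15 and 15.79 counts, and 4.78% and 1.86% in the second file. For both genes the retained-intron share was higher in replicate 1 in both files.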

How the data were processed

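Per the file headers and the deposited file lists, 1 gene table and 2 transcript tables were deposited for each library, on mm10 and GENCODE M21. Gene table and first transcript table hold expected counts, estimated counts that need not be whole, TPM and posterior mean TPM under column names that RSEM writes. The isoform percent column was made by the authors, per the file headers; shares in the text were computed anew from TPM. The second was deposited with estimated counts and TPM under names that kallisto writes. Posterior SDs of counts are quoted as deposited, and bounds of TPM intervals are not quoted. The aligner and the versions of these programs are not given in sources used here. The labels give both samples the same donor entry, so separate animals are assumed from their biobank numbers, and each SD rests on that. Over 18136 genes the counts of the libraries differed with a chi-square of 5.56 per degree of freedom, so they are not copies of 1 library.

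The members and all 17 gene lists, with 139 genes, were chosen with earlier results of these data known. Differences are log2((TPM + 0.5) in replicate 1 over replicate 2), without p-values, since each side has 1 sample. The pseudocount of 0.5 understates differences of low genes. Medians and background shares take genes whose mean count reached 10, or 500, a limit chosen after seeing the data. Counting intervals are exact binomial 95% intervals of TMM-scaled counts, and so belong to that scale and not to TPM, which also carries differences in estimated length; for Nptxr, Vgf and Plk2 the TPM difference lies outside the interval. Intervals and the limit of 3 counts cover counting error only. All 10 genes are named, and of each list up to 4 genes by mean TPM and up to 3 by difference, except 1 that is not reported here; with 2 libraries no gene could be ranked by likeness of pattern. Transcripts with a mean share of at least 5% are named. Expected counts were rounded for edgeR and DESeq2. The 26248 numbered rows that name no gene, with 7 and 10 counts (2.29e-05% and 3.01e-05%), stayed out of library sizes. Windows and motifs came from a RefSeq promoter table on GRCm38.p6. The log2 difference, the 1.5-fold call and the counting interval were tested on simulated gene counts. For the interval these counts held counting error only. Scalings, gene lists, ratios, transcript shares and motif searches were not tested on simulated data. Python 3.11.15 was used with scipy 1.17.1, pandas 2.3.3, numpy 2.4.6 and, for figures, matplotlib 3.10.9; scaling used DESeq2 1.42.0 and edgeR 4.0.16 in R 4.3.3.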

Additional observations from a re-analysis of the deposited data

How the results depend on the processing

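Over 7 alternatives to the TPM difference, 1 of the 10 genes stayed over 1.5-fold higher in replicate 1, Arc, and 0 were over 1.5-fold lower. The log2 difference of Arc fell to 0.83 when TPM was scaled to the spike-in total, and the median of the 10 genes was -0.16 there, against 0.03; under the other alternatives both stayed within their error. Arc did not change sign in any of them. The background counts moved more. Genes over 1.5-fold higher in replicate 1 numbered 401, or 924 with a pseudocount of 0.1, 202 with 1, 864 by counts with DESeq2 size factors, 212 after spike-in scaling, 981 with no filter and 22 at a mean count of at least 500. Genes over 1.5-fold lower numbered 280, or 571, 165, 632, 569, 796 and 10 under the same settings, 423 in the second transcript file and 179 by posterior mean TPM. The mean level moved by more than 1 SD in the second file for 9 of 10 genes and the leading share for 5 of 8. All 10 levels were higher in that file. Nptxr had 624.1 TPM there against 411.4, Nrn1 277.9 against 170.3 and Arc 179.2 against 124.5. Arc stayed within 1 SD because its SD was 59.9 TPM. The cause was not tested. With 2 libraries, leaving one out moves any mean by a fixed part of its SD, so that alternative says nothing about stability. No paired analysis was possible because the labels give 1 group. Inhba, with the fewest counts, had the widest counting interval of the 10.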
